A study of Mus musculus with 6 samples.

Results

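The 10 genes described here are the TGF-beta ligands Tgfb1, Tgfb2 and Tgfb3, the receptors Tgfbr1, Tgfbr2 and Tgfbr3, and the target genes Smad7, Skil, Pmepa1 and Tgfbi. They were taken by name from the 22180 genes that had a probe set with exactly 1 symbol in the platform annotation. Each of the 10 had 1 such probe set, and all 10 lay among the 13308 genes whose mean signal was high enough to be tested. The cells were mouse inner medullary collecting duct (IMCD) cells, an epithelial line of the kidney collecting duct. A lentivirus had given them GFP together with either the ILK missense variant T173I (3 arrays) or wild-type ILK (3 arrays). ILK, integrin-linked kinase, is an adaptor at focal adhesions. Every culture, of both groups, overexpressed an ILK construct and was stimulated with EGF (20 ng/ml, 15 minutes), then incubated for 1 hour before its RNA was extracted. There was therefore neither an unstimulated nor an untransduced group. The sources used here do not say which promoter drives the vector, how many lines stand behind each group, or whether the cells keep their own Ilk gene. No TGF-beta was added according to the labels, and the cultures were kept in serum-containing medium. The genes were therefore read without added TGF-beta, after the EGF stimulation and the incubation of 1 hour.

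TGF-beta ligands are secreted in latent complexes that are held in the matrix until integrins or proteases free them. Free ligand binds the type II receptor, Tgfbr2, which recruits and phosphorylates the type I receptor, Tgfbr1, while Tgfbr3 (betaglycan) presents ligand to them. The type I receptor phosphorylates SMAD2 and SMAD3, which enter the nucleus with SMAD4 and switch on genes, several of which, such as Smad7, Skil and Pmepa1, feed back to restrain the pathway. In the kidney the pathway is best known for matrix deposition and fibrosis and for loss of epithelial character in tubule cells.

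Sequence before an annotated start is shown for 3 members because Tgfb2 was among the most variable genes over these arrays, Tgfb1 was not, and Tgfbr2 is the signalling receptor of both. Each is the 250 bases before the annotated start in RefSeq's mouse assembly GRCm38.p6, written 5′ to 3′ on the strand of the gene. Tgfb1 lies on the plus strand at chr7:25686752-25687001, Tgfb2 on the minus strand at chr1:186705990-186706239 and Tgfbr2 on the minus strand at chr9:116175364-116175613. The Tgfb1 and Tgfbr2 windows end at the outer bound of the gene. The Tgfb2 window lies inside the bounds of its gene, chr1:186622787-186709697, and so precedes an internal annotated start and not the outermost one. Capitals mark the core of a SMAD-binding element, spelled CAGAC, the E-box spelled CACGTG, and the TATA element spelled TATAAA.
Tgfb2: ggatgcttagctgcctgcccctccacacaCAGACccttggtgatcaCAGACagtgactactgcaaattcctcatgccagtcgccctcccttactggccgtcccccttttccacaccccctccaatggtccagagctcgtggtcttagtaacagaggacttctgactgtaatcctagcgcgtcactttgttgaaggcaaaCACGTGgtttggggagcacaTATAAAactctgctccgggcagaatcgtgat
Tgfb1: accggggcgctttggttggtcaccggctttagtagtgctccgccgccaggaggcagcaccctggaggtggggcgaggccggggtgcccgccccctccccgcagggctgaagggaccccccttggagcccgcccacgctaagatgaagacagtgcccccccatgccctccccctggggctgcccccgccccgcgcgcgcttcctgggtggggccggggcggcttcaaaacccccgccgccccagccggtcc
Tgfbr2: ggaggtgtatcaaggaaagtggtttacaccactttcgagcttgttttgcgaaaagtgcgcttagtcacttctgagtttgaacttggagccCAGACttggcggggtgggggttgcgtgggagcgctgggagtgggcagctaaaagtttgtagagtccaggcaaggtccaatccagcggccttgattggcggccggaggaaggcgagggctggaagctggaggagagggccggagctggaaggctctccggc

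The Tgfb2 window held the SMAD core at 221 and 204 bases before the start, the E-box at 51 and the TATA element at 31. The Tgfbr2 window held the SMAD core once, at 160 bases before the start, and the Tgfb1 window held none of these motifs. Both strands were searched and no marked motif overlapped another. Over all 32851 promoter windows of the same length, 42.2% held the SMAD core, 6.02% the E-box and 12.4% the TATA element. The AP-1 element TGACTCA, present in 4.46% of all windows, was in none of the 3. The share of G and C was 53.6% for Tgfb2, 75.2% for Tgfb1 and 58.4% for Tgfbr2, against a median of 52.4% over all windows. Promoter windows were read for 5 of the 10 members. Chromosome 18, which holds Smad7, was left out of the search, and no entry was found for Tgfb3, Tgfbr3, Skil and Pmepa1. These matches describe letters only.

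Median log2 signal ran from 5.45 to 5.52 over the 6 arrays. Over the tested genes, T173I replicate 1 correlated at 0.985 to 0.991 with the wild-type arrays (Pearson's r across genes, which are not independent replicates) but at 0.964 and 0.981 with T173I replicates 2 and 3. T173I replicate 1 thus lay nearer to the wild-type arrays than to its own group, and results that rest on it are given with and without it. T173I replicate 2 had the lowest correlations with the wild-type arrays, 0.959 to 0.967. T173I replicate 3 had 0.977 to 0.983 with them, and 0.983 with T173I replicate 2. Of 15 collecting duct epithelial markers, 14 passed the filter on low signal, and the mean of the list was 9.13 to 9.25 on the T173I arrays against 9.03 to 9.09 on the wild-type arrays. In 5 of the 14 the groups did not overlap, beside 15.2% of all tested genes. Of these 5, 4 were higher and 1 lower in T173I, beside 7.23% and 7.95% of all tested genes. Krt19, Krt8 and Krt18, keratins of simple epithelia, had differences of 1.62, 0.64 and 0.44 log2 units, and Gata3, a transcription factor of the duct lineage, had -0.78 (T173I minus wild type). These 4 were the markers of that list with an unadjusted limma p under 0.05, beside 10.2% of all tested genes. None of them passed at an adjusted p under 0.05. Its water channel genes were dim: Aqp3 was below the filter, and Aqp2 had 5.97 to 6.25 in T173I against 6.01 to 6.10 in wild type. None of 6 endothelial markers passed the filter. Of 9 fibroblast markers 4 passed, and the list mean was 5.11 to 5.49 in T173I against 5.07 to 5.38 in wild type. Pdgfra, Dcn and Lum were among those below the filter. Postn, which passed, varied most: 8.05, 5.49 and 4.30 on T173I replicates 1, 2 and 3. On wild-type replicates 1, 2 and 3 it had 4.65, 6.05 and 6.26. Of 6 macrophage markers 3 passed (Cd14, Cd68 and Csf1r) and the defining gene Ptprc did not; the list mean was 5.63 to 6.05 in T173I against 5.95 to 6.11 in wild type. That mean covers genes that moved opposite ways: the differences were -1.37 for Cd14, -0.78 for Csf1r and 1.10 for Cd68. In all 3 the groups did not overlap, beside 15.2% of all tested genes. Each had an unadjusted limma p under 0.05, beside 10.2% of all tested genes, but not an adjusted one. The part of these marker levels in the results was not tested. In bulk RNA, fewer cells expressing a gene and less RNA per cell cannot be told apart.

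Between T173I and wild type, none of the 10 members passed at an adjusted p under 0.05 in limma's test, where 0% of all 13308 tested genes did (Benjamini-Hochberg over all tested genes). The largest difference was in Tgfbr3, which was 2.69-fold lower in T173I, and it was the only member to differ by more than 1 log2 unit, as 1.19% of all tested genes did. Pmepa1 was 1.30-fold higher on average. At an unadjusted p under 0.05 these 2 of 10 members were counted, beside 10.2% of all tested genes. The count was 1 of 10 when T173I replicate 2, T173I replicate 3 or wild-type replicate 3 was omitted. The member counted was then Tgfb1, Tgfbr1 and Tgfb1 in turn, and neither Tgfbr3 nor Pmepa1. The share of all tested genes fell as well, to 7.62%, 7.31% and 8.08%. With T173I replicate 1 omitted the count was 3 (Tgfbr3, Tgfbr2 and Tgfbi, without Pmepa1), beside 22.1% of all tested genes. In 3 members (Tgfbr3, Pmepa1 and Tgfbi) the groups did not overlap, beside 15.2% of all tested genes; 1 was higher and 2 were lower in T173I, beside 7.23% and 7.95%. Differences were positive in 7 members and negative in 3, where 47.4% of all tested genes had a positive one, and their median was 0.25 log2 units, beside -0.011 for all tested genes. Counts this small are a description and do not set these genes apart from the rest of the array. All values are log2 signals of 1 probe set per gene, so levels are compared between samples and not between genes.

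**Figure D1:**
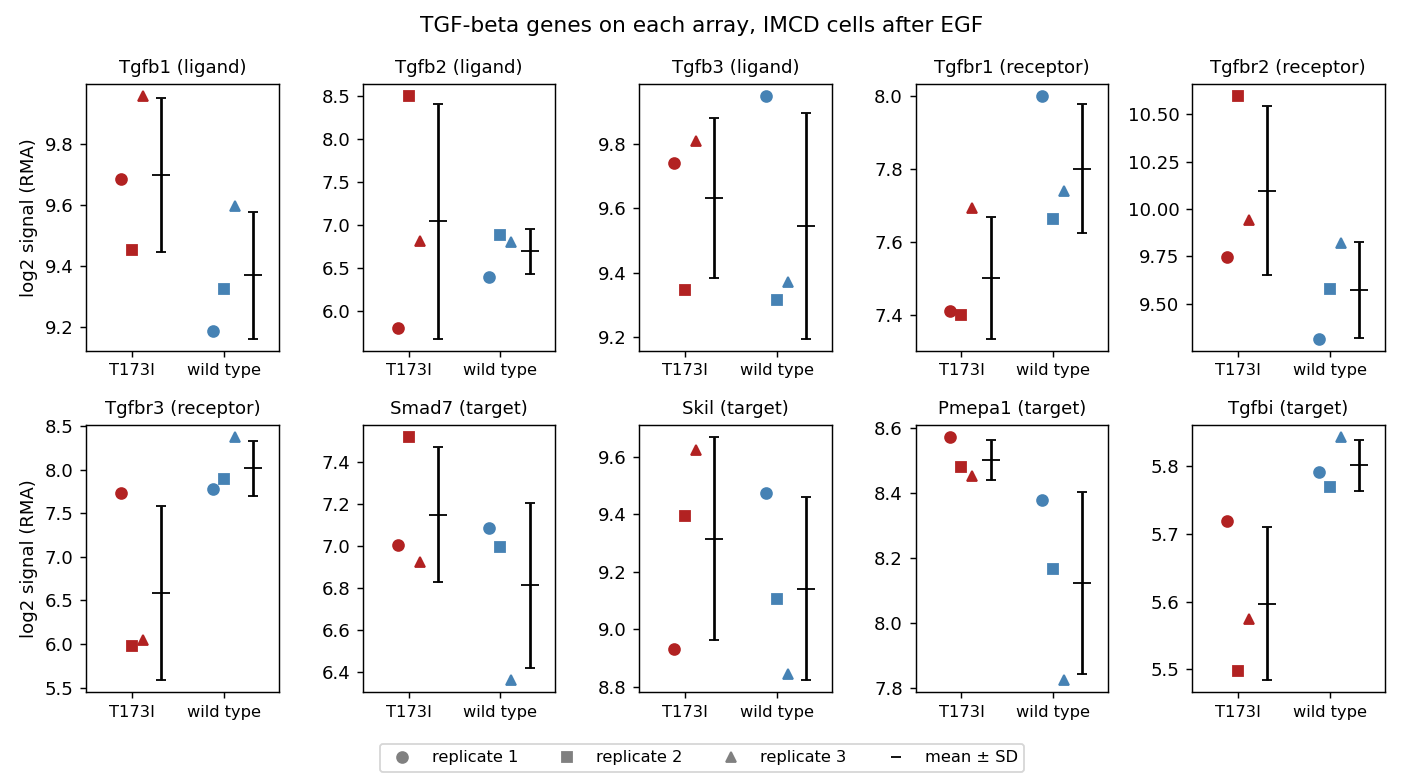
Log2 signal (y axis, RMA values) of the 10 TGF-beta genes in T173I and wild-type cells, 3 arrays each, with symbols for the replicate and a black bar for the mean ± SD. Tgfbr3 is at 5.98 and 6.04 on T173I replicates 2 and 3 and at 7.74 to 8.38 elsewhere, and Pmepa1 is above every wild-type array on every T173I array.

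Tgfb1 encodes the most widely studied ligand of the family, made by tubule epithelium among many other cells. Its log2 signal was 9.68, 9.45 and 9.96 on T173I replicates 1, 2 and 3, against 9.19, 9.33 and 9.60 on wild-type replicates 1, 2 and 3. The groups overlapped, with wild-type replicate 3 above T173I replicate 2. The means were 9.70 ± 0.25 in T173I and 9.37 ± 0.21 in wild type (SD, n = 3 each). The difference of 0.33 had a 95% interval of -0.059 to 0.72 and a limma adjusted p of 0.52. It was 0.20 with T173I replicate 3 omitted and 0.49 with array weights.

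Tgfb2, a ligand that needs betaglycan for efficient binding to the type II receptor, spread more than any other member within the T173I group. Its signal was 5.80, 8.50 and 6.81 on T173I replicates 1, 2 and 3, against 6.39, 6.88 and 6.80 on wild-type replicates 1, 2 and 3. T173I thus held both the lowest and the highest of the 6 arrays, 2.70 log2 units apart, and its SD of 1.36 exceeded that of 99.7% of tested genes. The wild-type SD was 0.26. The mean difference was 0.35 with a 95% interval of -1.15 to 1.85 (limma, adjusted p = 0.84). Omitting T173I replicate 2 gave -0.38 and omitting T173I replicate 1 gave 0.97, so 1 array set its sign.

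Tgfb3, the remaining ligand, had 9.74, 9.35 and 9.81 on T173I replicates 1, 2 and 3, against 9.95, 9.32 and 9.37 on wild-type replicates 1, 2 and 3. Both groups covered nearly the same range. The difference of 0.086 had a 95% interval of -0.40 to 0.58 (limma, adjusted p = 0.89), which includes neither a 2-fold rise nor a 2-fold fall. Its sign turned when wild-type replicate 2, wild-type replicate 3 or T173I replicate 3 was left out, with values of -0.029, -0.00098 and -0.0021.

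Among the receptors, Tgfbr3 carried the widest contrast. Betaglycan is a proteoglycan that binds ligand at the cell surface, presents it to the signalling receptors and can sequester it once its extracellular domain is shed. The signal was 7.74, 5.98 and 6.04 on T173I replicates 1, 2 and 3, against 7.78, 7.90 and 8.38 on wild-type replicates 1, 2 and 3. T173I replicate 1 lay 0.040 units below the lowest wild-type array, whereas replicates 2 and 3 lay well below every other array. The means were 6.59 ± 1.00 in T173I and 8.02 ± 0.32 in wild type (SD, n = 3 each). The difference of -1.43 had a 95% interval of -2.57 to -0.29 and a limma adjusted p of 0.45, and the exact two-sided permutation p was 0.1, the smallest that 3 arrays against 3 can give. Without T173I replicate 1 the difference was -2.01 with a 95% interval of -2.47 to -1.54 and a limma adjusted p of 0.023. That was the only member counted in that fit, in which 1.17% of all tested genes were. Without T173I replicate 2 or 3 it was -1.13 or -1.16, and it did not pass. The array left out was the one of its group nearest to wild type, so that fit describes replicates 2 and 3 against wild type and not the T173I group.

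Tgfbr2, the type II receptor kinase that binds ligand first, had 9.75, 10.60 and 9.94 on T173I replicates 1, 2 and 3, against 9.32, 9.58 and 9.82 on wild-type replicates 1, 2 and 3. T173I replicate 2 was the highest of the 6, and T173I replicate 1 lay within the wild-type range. The difference of 0.52 had a 95% interval of -0.051 to 1.10 (limma, adjusted p = 0.50). It was 0.27 without T173I replicate 2.

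Tgfbr1, the type I receptor kinase that phosphorylates the SMADs, had the opposite sign. Its signal was 7.41, 7.40 and 7.69 on T173I replicates 1, 2 and 3, against 7.9996, 7.66 and 7.74 on wild-type replicates 1, 2 and 3. T173I replicate 3 lay just above the lowest wild-type array, and the other T173I arrays lay below all of them. The difference was -0.30 with a 95% interval of -0.61 to 0.010 (limma, adjusted p = 0.49), and it was -0.15 when the arrays were weighted and -0.20 with wild-type replicate 1 omitted. On T173I replicate 2 the 3 receptors stood at 1.02 (Tgfbr2), -0.40 (Tgfbr1) and -2.04 (Tgfbr3) log2 units from their wild-type means.

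**Figure D2:**
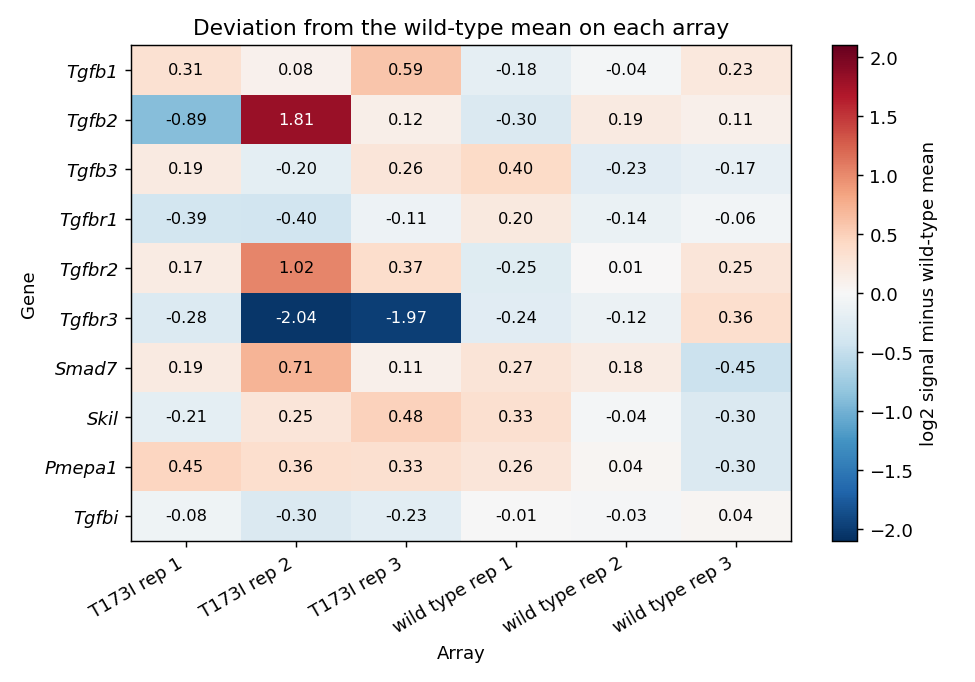
Log2 signal minus the wild-type mean of each gene (colour and printed value) for the 10 TGF-beta genes (rows) on the 6 arrays (columns), with the T173I arrays on the left. The strongest deviations are -2.04 and -1.97 for Tgfbr3 and 1.81 for Tgfb2, all on T173I replicates 2 or 3.

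Smad7, an inhibitory SMAD that blocks the type I receptor and brings ubiquitin ligases to it, had 7.00, 7.52 and 6.93 on T173I replicates 1, 2 and 3, against 7.08, 6.99 and 6.36 on wild-type replicates 1, 2 and 3. T173I replicate 2 was the highest and wild-type replicate 3 the lowest, while the other 4 arrays lay between 6.93 and 7.08. The difference was 0.34 with a 95% interval of -0.23 to 0.91 (limma, adjusted p = 0.61). It was 0.15 when T173I replicate 2 was omitted, 0.11 when wild-type replicate 3 was, and 0.15 with array weights.

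Skil encodes SnoN, a co-repressor that binds SMADs and is degraded and then re-made during a TGF-beta response. It had 8.93, 9.39 and 9.62 on T173I replicates 1, 2 and 3, against 9.48, 9.10 and 8.84 on wild-type replicates 1, 2 and 3. The groups overlapped over most of their range. The difference of 0.17 had a 95% interval of -0.36 to 0.71 (limma, adjusted p = 0.78), which became 0.37 when T173I replicate 1 was omitted and 0.020 when T173I replicate 3 was. With wild-type replicate 1 omitted it was 0.34, with wild-type replicate 3 omitted 0.026, and with array weights 0.35.

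Pmepa1, a membrane protein that sequesters SMAD2 and SMAD3, was the target with the tightest T173I values. It had 8.57, 8.48 and 8.45 on T173I replicates 1, 2 and 3, against 8.38, 8.17 and 7.82 on wild-type replicates 1, 2 and 3. Every T173I array, replicate 1 included, lay above every wild-type array, by 0.074 units at the nearest point. The difference of 0.38 had a 95% interval of 0.029 to 0.73 and a limma adjusted p of 0.49 (exact two-sided permutation p = 0.1, the smallest possible). Leaving out 1 array at a time gave 0.23 to 0.51, the lowest without wild-type replicate 3.

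Tgfbi, a secreted matrix protein that binds integrins and collagen, is commonly strongly induced by TGF-beta. Its signal was dim, at 5.72, 5.50 and 5.57 on T173I replicates 1, 2 and 3, against 5.79, 5.77 and 5.84 on wild-type replicates 1, 2 and 3. All T173I arrays were below all wild-type arrays. The difference of -0.20 had a 95% interval of -0.41 to 0.0041 (limma, adjusted p = 0.49; exact two-sided permutation p = 0.1, the smallest possible). That difference became -0.27 with T173I replicate 1 omitted (95% interval -0.47 to -0.065, limma, adjusted p = 0.15). The mean signal of Tgfbi, 5.70, stood close above the filter on low signal at 5.37.

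**Figure D3:**
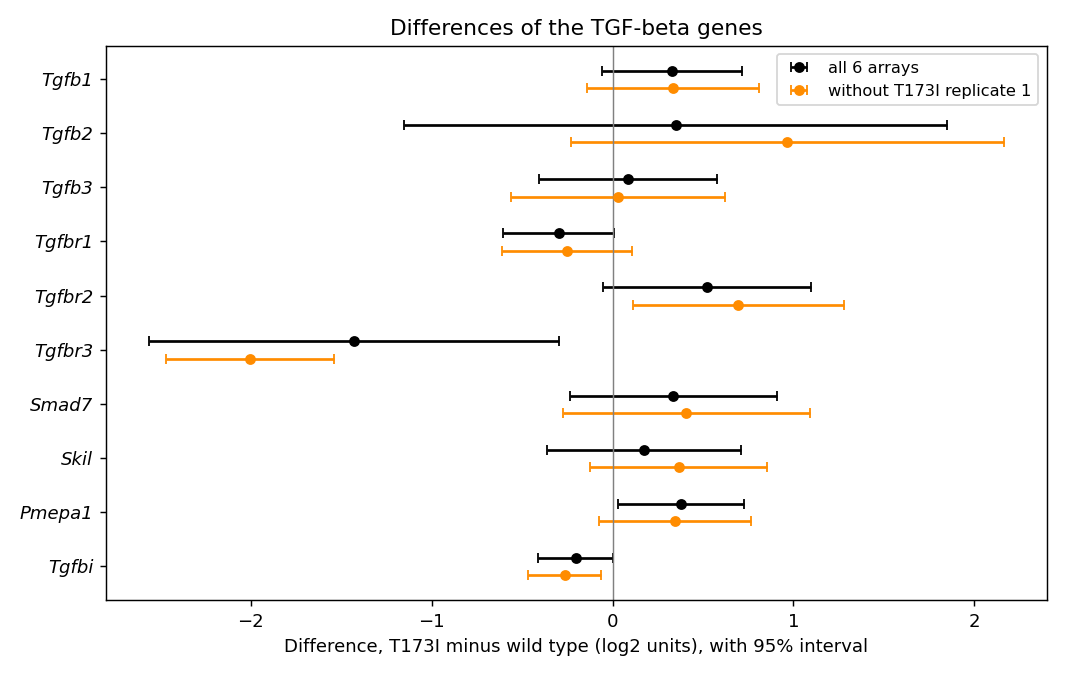
Difference of T173I minus wild type (x axis, log2 units) with its 95% interval in limma's fit for the 10 TGF-beta genes, over all 6 arrays (black) and without T173I replicate 1 (orange). The interval of Tgfbr3 is -2.57 to -0.29 over all arrays and -2.47 to -1.54 without that array, and the intervals of most other genes include 0 in both fits.

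Set side by side, the 4 targets did not share 1 direction. Smad7, Skil and Pmepa1 had positive differences (0.34, 0.17 and 0.38) and Tgfbi a negative one (-0.20). The mean deviation of the 4 targets from their wild-type means was 0.087, 0.25 and 0.18 on T173I replicates 1, 2 and 3, against 0.21, 0.038 and -0.25 on wild-type replicates 1, 2 and 3, and the groups overlapped. Among the wild-type arrays, Smad7, Skil and Pmepa1 were each highest on replicate 1 and lowest on replicate 3. Tgfb1, Tgfbr2 and Tgfbr3 had the reverse order there, lowest on replicate 1 and highest on replicate 3. The wild-type SD was larger than the mean difference in Smad7 (0.39 against 0.34), Tgfb3 (0.35 against 0.086) and Skil (0.32 against 0.17). The wild-type SDs of Smad7, Tgfb3, Skil, Tgfbr3 and Pmepa1 exceeded those of 97.6%, 96.8%, 95.7%, 95.6% and 93.9% of tested genes.

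The member with the widest spread over the 6 arrays was Tgfbr3, with an SD of 1.03, above that of 99.4% of tested genes. The tested genes whose 6 deviations from their own mean were closest to those of Tgfbr3 were Galnt7, Bmp4, Tshz1 and Casp12, with root mean square differences of 0.073, 0.16, 0.19 and 0.22 log2 units. Galnt7, an enzyme of mucin-type O-glycan synthesis, had 7.88, 6.13 and 6.12 on T173I replicates 1, 2 and 3, against 7.88, 7.87 and 8.59 on wild-type replicates 1, 2 and 3. Bmp4, a ligand of the same superfamily, had 9.21, 7.82 and 7.90 on T173I replicates 1, 2 and 3, against 9.25, 9.41 and 10.03 on wild-type replicates 1, 2 and 3. In both genes, as in Tgfbr3, T173I replicates 2 and 3 were low and replicate 1 was near the wild-type level. These genes were picked for their likeness out of 13308, so the likeness is a description.

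**Figure D4:**
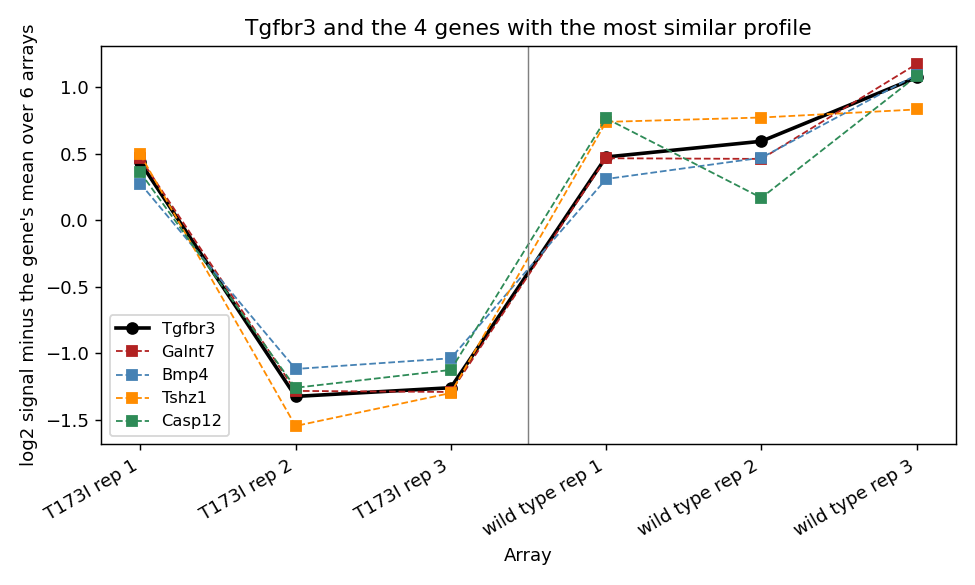
Log2 signal minus the mean of each gene over the 6 arrays (y axis) for Tgfbr3 (solid line) and the 4 tested genes with the smallest root mean square difference from it (dashed lines), by array with T173I on the left. All 5 genes have their lowest values on T173I replicates 2 and 3.

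Other genes of the pathway were read in lists. No gene of any list passed at an adjusted p under 0.05, and the counts below are at an unadjusted p under 0.05, beside 4.88% of all tested genes higher and 5.31% lower in T173I. Those shares change with the arrays used: higher and lower together, they came to 22.1%, 7.62% and 7.31% of all tested genes with T173I replicate 1, 2 or 3 omitted, and to 5.03%, 5.97% and 8.08% with wild-type replicate 1, 2 or 3 omitted. Counts with an array omitted are to be read against these. Among 15 tested genes of latent ligand storage and activation, 1 was counted higher and 2 lower, with a median difference of -0.031. Itgb6, the integrin subunit that pairs with Itgav to free latent TGF-beta on epithelia, had 7.78, 7.94 and 8.02 on T173I replicates 1, 2 and 3, against 9.43, 8.71 and 8.52 on wild-type replicates 1, 2 and 3. The T173I arrays, replicate 1 included, were all below wild type, by a mean of -0.98 (95% interval -1.54 to -0.42, limma, adjusted p = 0.45). Ltbp4, a latent TGF-beta binding protein, had a difference of 0.49, and Itgb5 and Itgb8, integrin subunits that also pair with Itgav, had -0.46 and -0.42. Itgav itself had 10.59, 10.46 and 10.60 on T173I replicates 1, 2 and 3, against 10.54, 10.55 and 10.61 on wild-type replicates 1, 2 and 3, and these ranges overlapped. Itgav was named after its values were seen. The lower count was 1 without any 1 of the wild-type arrays. Without T173I replicate 1 the higher count was 2 and the lower count 3, beside 9.83% and 12.3% of all tested genes.

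Among 15 tested receptor partners and regulators, 1 was counted higher and 0 lower, and 12 had positive differences, with a median of 0.13. Cd109, a GPI-anchored co-receptor that inhibits TGF-beta signalling in human cells, had 6.32, 8.07 and 7.64 on T173I replicates 1, 2 and 3, against 5.27, 6.11 and 5.57 on wild-type replicates 1, 2 and 3. The groups did not overlap, and the difference of 1.69 (95% interval 0.60 to 2.79, limma, adjusted p = 0.45) was 3.24-fold. Usp15, a deubiquitinase of the receptor and SMADs, had a difference of 0.27, Vasn, a ligand-binding membrane protein, 0.16, and Bambi, a decoy receptor without a kinase domain, -0.26. The higher count was 4 without T173I replicate 1 and 3 without wild-type replicate 3 or with array weights. It was 0 when the lowest 60% of genes were left out, since Cd109 itself is below that filter. The lower count was 1 without T173I replicate 1 and 1 with array weights.

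Among 18 tested SMADs and nuclear partners, 1 was counted higher and 2 lower, with a median of 0.013. Rnf111 (Arkadia), the ubiquitin ligase that degrades SnoN and SMAD7, had 9.36, 9.64 and 9.62 on T173I replicates 1, 2 and 3, against 9.17, 9.17 and 9.24 on wild-type replicates 1, 2 and 3. All T173I arrays were above all wild-type arrays, with a difference of 0.34 (95% interval 0.11 to 0.58, limma, adjusted p = 0.45). Smad6, an inhibitory SMAD that acts mainly on the BMP branch, had a difference of -0.71, and Smad1, a BMP effector, one of -0.26. Smad3, which carries the TGF-beta signal, had -0.18. Smad2 and Smad4, its partners, were named after their values were seen and had differences of 0.025 and -0.11. The higher count was 2 without wild-type replicate 3, and the lower count was 1 without T173I replicate 3 or wild-type replicate 1.

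Among 34 tested genes of a list of other TGF-beta-induced genes, which shares Itgb6, Bambi, Ltbp2 and Thbs1 with the pathway lists above and Col1a1, Col1a2, Col3a1 and Postn with the fibroblast markers, 6 were counted higher and 2 lower, with 21 positive differences and a median of 0.098. Tgfb1i1 (Hic-5), a focal adhesion LIM protein induced by TGF-beta, had 6.64, 6.73 and 6.91 on T173I replicates 1, 2 and 3, against 5.85, 5.93 and 6.20 on wild-type replicates 1, 2 and 3. Adam12, a membrane metalloprotease, had 5.79, 6.42 and 6.51 on T173I replicates 1, 2 and 3, against 5.52, 5.58 and 5.53 on wild-type replicates 1, 2 and 3, a difference of 0.70 (95% interval 0.25 to 1.15, limma, adjusted p = 0.45). In both genes the groups did not overlap. Fn1, fibronectin, had a difference of 0.97 and stood at 11.57 on T173I replicate 1, close to the highest wild-type array at 11.48, and at 12.85 and 12.30 on replicates 2 and 3. Ccn2, a standard readout of the pathway named here after its values were seen, had 10.33, 11.00 and 9.77 on T173I replicates 1, 2 and 3, against 10.63, 10.17 and 9.65 on wild-type replicates 1, 2 and 3, and the groups overlapped. Of the 4 fibroblast markers that passed the filter, 3 are thus in this list. The higher count was 10 without T173I replicate 1, where 9.83% of all tested genes were counted higher and 12.3% lower. It was 3 without T173I replicate 2 (4.13% of all tested genes higher), 2 without T173I replicate 3 (3.34%), and 3 without wild-type replicate 1 (2.49%) or 2 (2.92%). The lower count became 5 with T173I replicate 1 omitted and 1 when T173I replicate 2, wild-type replicate 1 or wild-type replicate 2 was.

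Among 10 tested genes that TGF-beta represses in epithelial cells, none was counted in either direction, also not at an adjusted p under 0.05, and in 0 of them did the groups separate. Their median difference was 0.12. Cdk4, a kinase of the early cell cycle, had -0.21, Cdc25a, a phosphatase that activates such kinases, 0.20, Tert, the telomerase reverse transcriptase, 0.17, and Id3, an inhibitor of helix-loop-helix factors, 0.43 (limma 95% interval -0.57 to 1.43). Without T173I replicate 1 the lower count was 1.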

How the data were processed

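Log2 signals for 41345 probe sets on 6 arrays were used as the authors deposited them. Per the submitters' processing notes, RMA produced them; the sources used here name neither its software and version nor the probe set definition. RMA makes signal distributions alike, so a shift of most transcripts would not be seen, and array number, not read depth, limits precision.

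From 23521 probe sets with 1 symbol, the one with the highest mean stood for each of 22180 genes. The lowest 40% by mean (log2 5.37 or less) were left out, and 13308 were fitted with limma 3.58.1 (R 4.3.3; lmFit, eBayes, no covariate, tests of both directions, Benjamini-Hochberg over all tested genes). Members were matched to GRCm38.p6 by Entrez identifier (10 of 10). The mean difference of each member also had an exact two-sided permutation test. Its p is always 0.1 where the groups do not overlap, so there it adds nothing to that separation. In the other members it ran from 0.2 to 0.9. In simulated data over 13308 genes, 84% of 100 genes changed by 1 log2 unit and 94% of 100 changed by 2 were recovered, with 15 false calls. The simulated noise was independent between genes and arrays, with 1 SD per gene for both groups. In the real arrays the median SD was 0.16 in T173I and 0.098 in wild type. These shares therefore check the fit and do not give its power on the real arrays.

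The members and lists were chosen with earlier results of these data known. The text names all members, up to 4 genes per list with the smallest unadjusted p, the 4 genes most like the most variable member, and genes said to be named after their values were seen. The labels call the samples biological replicates without naming separate lines or cultures, so p-values measure the spread between these arrays, which may be technical. Alternatives covered the filter, the eBayes prior, scaling, the probe set rule, array weights, a replicate block and leaving out each array.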

Additional observations from a re-analysis of the deposited data

How the results depend on the processing

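Of 139 member differences recomputed under 14 alternatives, 134 kept their sign and their side of the adjusted threshold, 4 turned sign (Tgfb2 and Tgfb3) and 1 passed the threshold (Tgfbr3 without T173I replicate 1, limma, adjusted p = 0.023). Many of the 134 could not have turned sign. The filters, the eBayes prior, the probe set rule and the replicate block leave a member's difference unchanged and can alter only its p. All 4 turns and the 1 passing came with 1 array left out. With 1 array left out, the difference of Tgfb2 ran from -0.38 to 0.97 and that of Tgfb3 from -0.029 to 0.29. Leaving out 1 array gave 0 to 156 of all genes at an adjusted p under 0.05 and 670 to 2946 at an unadjusted p under 0.05, and 0 to 1 and 1 to 3 of the members. Array weights raised the unadjusted counts to 2856 genes (21.5%) and 5 members. The cause was not tested. A replicate block counted 4 members beside 11.3% of all genes, and it moved no member past the adjusted threshold. Same-numbered arrays deviated together at correlations of only 0.049, 0.067 and 0.048, so the samples share a number and are not treated as pairs. Tgfbi was below the stricter filter, which left out the lowest 60% of genes, and has no value there. Dim signal limits what can be read for Tgfbi.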

Other observations

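Other parts of the superfamily were read in a list of activin, BMP and GDF ligands, receptors and antagonists. Of 15 tested genes, 0 were higher and 2 lower in T173I at an unadjusted p under 0.05, beside 4.88% and 5.31% of all tested genes, with a median difference of -0.0092 and 0 at an adjusted p under 0.05 in limma's test. The 2 were Bmp4, with a difference of -1.25, and Acvr2a, a type II activin receptor, with -0.61. The lower count was 3 without T173I replicate 1, 0 without T173I replicate 2, T173I replicate 3 or wild-type replicate 3, and 1 without wild-type replicate 1 or 2. Without T173I replicate 1 the higher count was 2. Bmpr1a, a type I BMP receptor, had -0.17. Fst, follistatin, which binds and neutralises activins, had 8.69, 10.87 and 9.29 on T173I replicates 1, 2 and 3, against 8.84, 8.47 and 7.56 on wild-type replicates 1, 2 and 3 (difference 1.33, 95% interval -0.081 to 2.74, limma, adjusted p = 0.49).

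T173I replicate 2 held the highest value of 3 members (Tgfb2, Tgfbr2 and Smad7) and the lowest of another 3 (Tgfbr1, Tgfbr3 and Tgfbi), where it held the highest value of 22.4% and the lowest of 31.2% of all tested genes. Inhba, the activin A subunit, and Lif, a cytokine, were named after their values were seen and were also highest on that array. Inhba had 5.39, 7.20 and 5.67 on T173I replicates 1, 2 and 3, against 5.12, 5.36 and 5.49 on wild-type replicates 1, 2 and 3. Lif had 7.47, 9.96 and 8.19 on T173I replicates 1, 2 and 3, against 7.19, 7.41 and 7.60 on wild-type replicates 1, 2 and 3. The cause was not tested.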
